A study of Canis lupus familiaris with 4 samples.

Results

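The genes described here encode the nuclear subunits of the respiratory chain, complexes I to IV, and of the ATP synthase, complex V. They were selected by a rule on the symbol alone: NDUFA, NDUFB, NDUFC, NDUFS or NDUFV followed by a digit, SDHA to SDHD, symbols that begin with UQCR, the cytochrome c oxidase subunits COX4 to COX8, and symbols that begin with ATP5. Of the 11691 genes in both deposited tables, 64 met the rule, and all 64 were also found in each table alone, of 11749 genes for pair 1 and 11780 genes for pair 2. Complex I held 35 of them, complex II 4, complex III 7, complex IV 6 and complex V 12. The rule uses no measured value, although this gene family was taken up with earlier results of these data known, and the assembly factors named NDUFAF were left out. NDUFA4 was placed in complex I by its name, although its product is now known as a subunit of complex IV. NDUFAB1 and CYC1, which are subunits as well, fall outside the rule and are described with the carriers.

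Respiratory complexes sit in the inner mitochondrial membrane. Complexes I and II pass electrons from NADH and succinate to ubiquinone, complex III passes them on to cytochrome c and complex IV to oxygen, and complex V makes ATP with the proton gradient that complexes I, III and IV build. Complex II is encoded by nuclear genes alone, whereas the other complexes combine nuclear subunits with a few that are encoded in mitochondrial DNA. Activated CD8+ T cells are known to raise their mitochondrial mass and respiration as they divide and form memory.

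Messenger RNA was sequenced from CD8+ T cells of 2 healthy mixed-breed dogs, 1 female (pair 1) and 1 male (pair 2). Blood mononuclear cells were expanded for 14 to 20 days with IL-2 at 2500 IU/mL and 2-mercaptoethanol at 50 µM before the CD8+ cells were purified. From each dog, 1 culture received exosomes, small vesicles released by CLBL-1, a canine B cell lymphoma line, and 1 received PBS, which gives 2 exosome and 2 control libraries. The series design gives 50 µg/mL of exosomes and 48 h for the sequenced cells, whereas the treatment label lists 50, 100 and 200 µg/mL and the column names read 24 h for pair 1 but 48 h for pair 2. Dog, sex and the hours in the column names therefore cannot be told apart.

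Between 9417298 and 12325953 reads per library were recovered over the shared genes. Levels are read counts scaled by the authors with 1 factor per library, are not corrected for gene length, and are compared here within a gene or within a sum of genes. Each level is a single library, and in the pairs of levels below the control comes first (control against exosome). The list of CD8+ T cell markers also holds genes shared by T cells, such as CD3E, CD2 and CD5. Its 7 measured genes with a row of their own summed to 1846 and 3513 in the controls of pair 1 and pair 2. In the exosome libraries they summed to 1528 and 3427. Of the CD8 genes, CD8A had 385 against 286 in pair 1 and 488 against 453 in pair 2. CD8B had 73.4 against 72.7 and 479 against 528. B cell markers, of the cell type that released the exosomes, had 3 such genes of 8 listed, at 20.0 and 6.58 in the controls and 10.3 and 5.03 in the exosome libraries. The 3 measured NK cell markers summed to 253 and 162 in the controls and to 106 and 105 in the exosome libraries. CD4+ T cell markers (3 genes) stood at 29.7 and 61.5 in the controls and at 41.8 and 55.5 in the exosome libraries. Of the monocyte markers only CD68 had a row of its own, at 0.471 and 0.849 in the controls and 2.17 and 1.02 in the exosome libraries. No gene was listed at 0, and the part of these other cells in the values below was not tested.

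Transcripts of the respiratory subunits showed no called difference between exosome and control libraries. None of the 64 passed an adjusted p of 0.05 in limma with the pair as a block, in a table where 29 genes (0.248%) were called higher and 58 (0.496%) lower. None reached an unadjusted limma p under 0.05 either, a mark that 5.95% of all genes passed as higher and 9.96% as lower. The same 2 counts were 0 in edgeR, limma-voom and DESeq2 on the recovered reads. In edgeR with TMM factors and in limma-voom no gene at all was called, so the adjusted count there tells nothing about the subunits. DESeq2 called 62 genes higher and 107 lower. An unadjusted p under 0.05 was reached by 14.03% of all genes in edgeR with TMM factors, 14.87% in limma-voom and 9.03% in DESeq2. The smallest limma p of a subunit gene was 0.149, adjusted to 0.511, for ATP5J2. A p that misses the threshold does not show that the groups were alike, so the intervals matter: all 64 of the 95% limma intervals lay within a 2-fold change in either direction, from a lowest bound of -0.83 (NDUFA6) to a highest of 0.89 (COX7A1) in log2. The widths rest mostly on the spread pooled over all genes, with 11.3 prior against 1 residual degree of freedom. SEs of the 64 genes therefore ran only from 0.228 to 0.261 and are not each gene's own measured spread. The bounds also depend on the fit, by counts added after the values were seen. With a pseudocount of 0.1 in place of 1, 62 of the 64 intervals lay within 2-fold, and those of NDUFA13 and of the barely detected COX7A1, which then reached 1.81, did not. Scaling to library totals left 63 within it, COX7A1 at 1.02 being the exception. Without the pair block 53 lay within 2-fold, and with any 1 library left out, fitted without the block, 0 did. In the fit reported, of all genes, 9396 of 11691 had an interval within 2-fold. Only 21 of the 64 intervals lay within 1.5-fold, so changes of that size were not bounded for most subunits. Fewer cells of a type and less RNA per cell cannot be told apart in such bulk libraries.

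**Figure D1:**
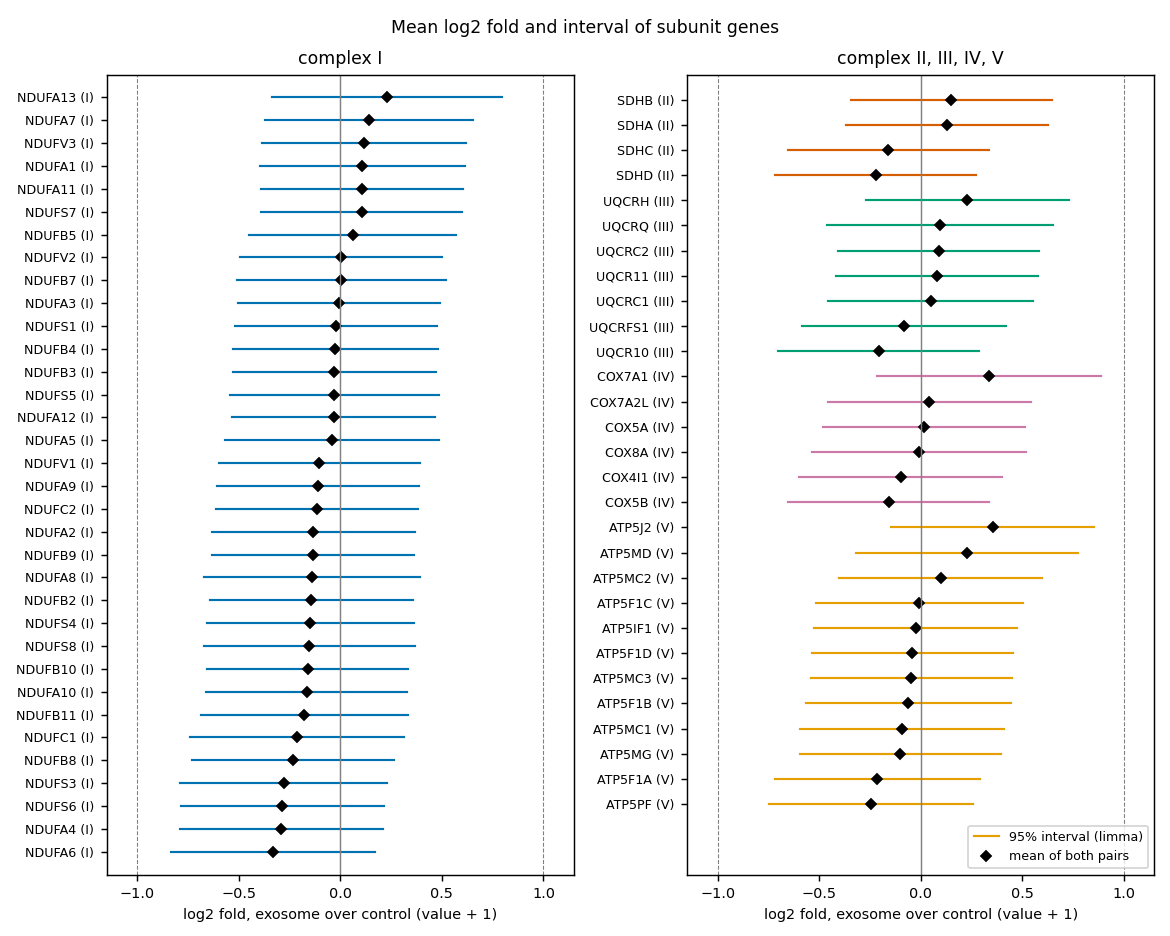
Mean log2 fold of the 2 pairs, exosome over control, for 63 of the 64 subunit genes (diamonds) with its 95% limma interval (lines); the x axis is log2 of (value + 1) and the dashed lines mark a 2-fold change. Every interval shown crosses 0 and stays between -0.83 and 0.89.

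The summed level of the 64 genes was 3836 against 3927 in pair 1 and 4263 against 3890 in pair 2. The ratios of exosome to control were 1.02 and 0.912, beside 1.03 and 0.948 for the sum of all genes. On the log2(value + 1) scale the median fold of pair 1 was 0.03 and that of pair 2 -0.12, against -0.02 and -0.03 over all genes. In pair 1, 35 subunit genes were higher in the exosome library and 29 lower. In pair 2, 15 were higher and 49 lower, so that 23.4% were higher, beside 47.1% of all genes. Scaled to the recovered totals, the median of pair 1 turned to -0.00 and that of pair 2 moved to -0.04, while the medians of all genes were -0.05 and 0.05.

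On the log2(value + 1) scale, the folds of the subunit genes were narrow within each pair. Their SD across genes was 0.185 in pair 1 and 0.256 in pair 2, against 0.554 and 0.409 over all genes and 0.513 and 0.355 over the 7122 genes with a mean level of at least 20. In both pairs, 41 of the 64 genes (64.1%) stayed within 1.2-fold, compared with 26.5% of all genes and 31.5% of the genes with a mean of at least 20. Among the 49 subunit genes above that mean the share was 65.3%. In pair 1, 1 gene (ATP5MD) was over 1.5-fold higher on this scale and 0 over 1.5-fold lower, where 8.73% and 14.3% of all genes passed. The low gene UQCRQ, at 2.90 against 4.54, had a plain ratio of 1.56 in pair 1, which the added 1 brings below that mark. In pair 2, 2 genes (NDUFA13 and COX7A1) were over 1.5-fold higher and 0 lower, where 6.53% and 7.48% of all genes passed. These are descriptions of 1 library against 1, and genes are not replicates.

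**Figure D2:**
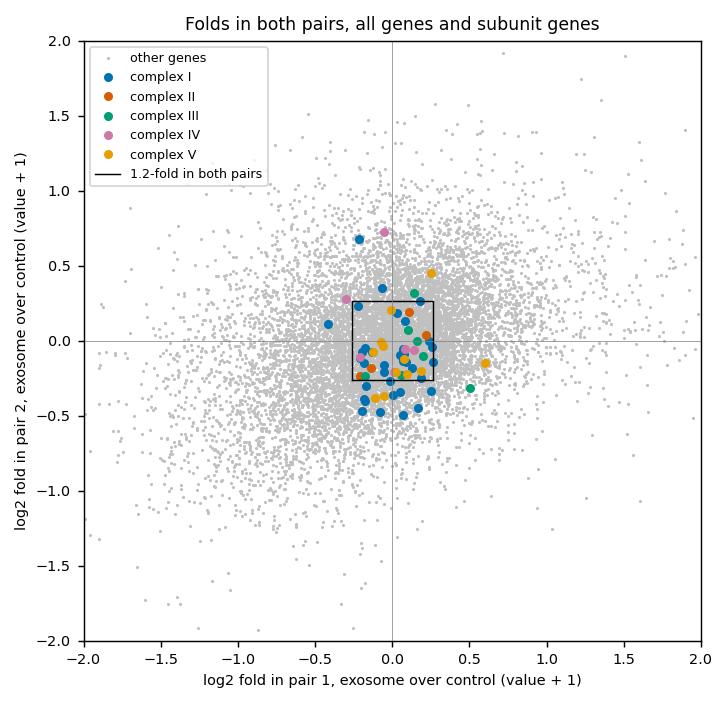
Log2 fold of each gene in pair 1 (x axis) and pair 2 (y axis), exosome over control on the log2(value + 1) scale, with subunit genes coloured by complex and the other genes in grey. The square marks 1.2-fold in both pairs and holds 41 of the 64 subunit genes; 69 genes lie outside the axes.

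The direction of the subunit genes often differed from pair to pair. Of the 64, 8 were higher in both exosome libraries than in their own controls, or 12.5% beside 27.8% of all genes. A further 22 were lower in both, or 34.4% beside 32.5%. The remaining 34 went opposite ways, beside 4640 of all 11691 genes. Of the 34, 27 were higher in pair 1 and lower in pair 2. Among the 49 subunit genes with a mean level of at least 20, 22 went opposite ways, beside 2754 of 7122 genes above that mean. Across genes the folds of the pairs correlated at -0.04 over the 64 and at 0.35 over all genes, as a description of points that share their libraries. Among genes with a mean of at least 20 the values were 0.14 for subunit genes and 0.43 for all genes.

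A stricter count asked that both exosome libraries lie on the same side of both controls. Above were 2 of the 64, ATP5J2 among them, whereas 12.9% of all genes were. Below were 14 genes, which is 21.9% of the 64, beside 14.3% of all genes: NDUFA2, NDUFA4, NDUFA6, NDUFA10, NDUFB2, NDUFB8, NDUFC2, NDUFS3, NDUFS6, NDUFV1, SDHC, SDHD, ATP5F1A and ATP5MG. Of these, NDUFA2, NDUFA10, NDUFB2, NDUFB8 and NDUFC2 lie outside the rule for named genes and were named after their values were seen. None of the 16 genes was called.

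In each pair, counting error alone covered the difference for most subunit genes. Exact 95% intervals of the ratio of exosome to control reads were used here, which cover counting error only. In pair 1 they lay above 1 for 9 subunit genes (14.1%) and below 1 for 6 (9.4%), where 29.1% and 30.4% of all genes did so. In pair 2 they lay above 1 for 8 (12.5%) and below 1 for 22 (34.4%), where 22.3% and 28.3% of all genes did. In both pairs the interval was above 1 for ATP5J2 and below 1 for NDUFA4, NDUFA10, NDUFB8 and SDHD. NDUFA10 had 75.8 against 66.8 in pair 1 and 73.5 against 66.1 in pair 2, and NDUFB8 had 55.7 against 49.5 and 61.8 against 50.0.

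**Figure D3:**
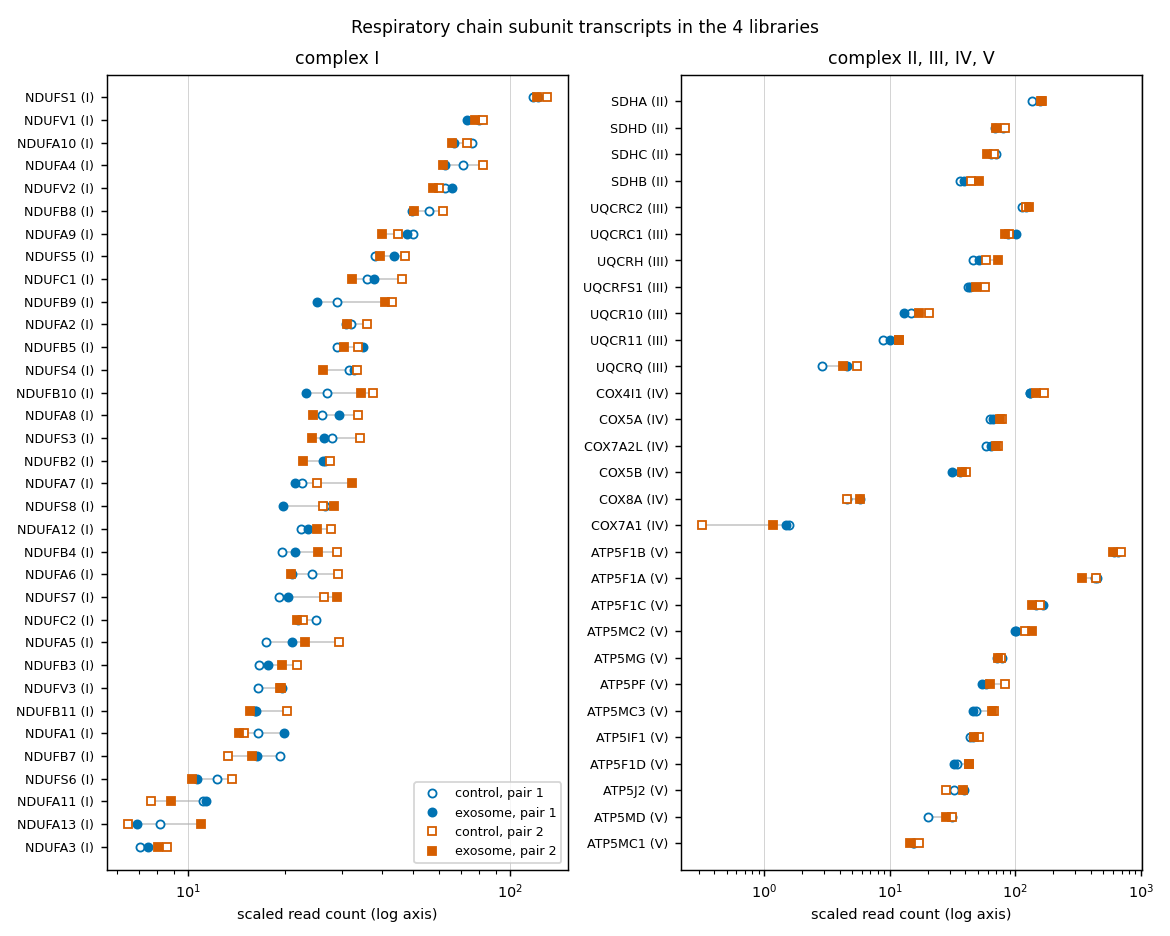
Scaled read count of 63 of the 64 subunit genes in the 4 libraries on a log axis, with controls as open and exosome libraries as filled symbols and pairs by colour. For most genes the 4 symbols lie close together; COX7A1, at 0.318 to 1.57, has the widest spread on this axis.

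Complex I takes up NADH through the FMN-binding NDUFV1 and passes electrons along iron-sulfur clusters to ubiquinone. Its 35 genes summed to 1268 against 1266 in pair 1 and to 1381 against 1271 in pair 2. Their median log2 fold was 0.01 in pair 1, -0.14 in pair 2 and, over the mean of the pairs, -0.10 ± 0.10 (SD of the 2 pair medians). In pair 2, 28 of the 35 genes were lower in the exosome library, and in pair 1 17 were.

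The 7 nuclear core subunits carry out the electron transfer. NDUFS3 had 28.0 against 26.4 in pair 1 and 34.1 against 24.2 in pair 2, so both exosome libraries were below both controls. NDUFS1, the largest iron-sulfur subunit of the complex, had 118 against 122 in pair 1 and 130 against 121 in pair 2.

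The other core subunits differed little or not the same way in both pairs. NDUFV1 had 80.1 against 73.1 in pair 1 and 81.9 against 77.8 in pair 2. Its partner NDUFV2, which binds an iron-sulfur cluster, had 62.7 against 65.8 in pair 1 and 59.9 against 57.5 in pair 2. The groups overlapped for NDUFV2 and stood just apart for NDUFV1. NDUFS7 and NDUFS8 hold the clusters next to ubiquinone. NDUFS7 had 19.1 against 20.3 in pair 1 and 26.4 against 29.0 in pair 2, higher with exosomes in each. NDUFS8 had 26.6 against 19.7 in pair 1 and 26.1 against 28.2 in pair 2, with folds of opposite sign.

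The accessory subunits surround this core and stabilise the complex. NDUFA6 had 24.2 against 21.0 in pair 1 and 29.2 against 20.8 in pair 2. Its mean log2 fold was -0.33 ± 0.23 (SE), the lowest of the 64 genes, and its adjusted limma p was 0.555. NDUFA4 had 71.3 against 62.8 in pair 1 and 82.1 against 61.9 in pair 2, a mean log2 fold of -0.29 ± 0.23. NDUFS6, a zinc-binding subunit, had 12.2 against 10.7 in pair 1 and 13.7 against 10.2 in pair 2, likewise -0.29 ± 0.23. For these 3 genes both exosome libraries were below both controls.

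The highest mean folds among the accessory genes rested on pair 2. NDUFA13, whose product is also known from studies of cell death, had 8.16 against 6.90 in pair 1 but 6.48 against 10.9 in pair 2. Its mean log2 fold of 0.23 ± 0.26 joins folds of -0.21 and 0.67. NDUFA7 had 22.6 against 21.5 in pair 1 and 25.1 against 32.2 in pair 2, a mean log2 fold of 0.14 ± 0.24. Exosome and control libraries overlapped for both genes. By group, the 13 NDUFA genes had median log2 folds of -0.06 and -0.15 in pair 1 and pair 2, and the 11 NDUFB and NDUFC genes had -0.02 and -0.15. Folds of the NDUFA genes lay between -0.21 and 0.26 in pair 1 and between -0.47 and 0.67 in pair 2. Those of the NDUFB and NDUFC genes ran from -0.22 to 0.26 and from -0.50 to 0.23. The 4 accessory genes named NDUFS or NDUFV had medians of 0.12 and -0.30.

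Complex II joins the citrate cycle to the chain. None of its 4 genes was called, and the order of the libraries differed by the role of the subunit. SDHA, the flavoprotein that oxidises succinate, had 135 against 158 in pair 1 and 159 against 163 in pair 2. SDHB, the iron-sulfur subunit beside it, had 36.2 against 39.1 in pair 1 and 44.5 against 50.9 in pair 2. Both catalytic subunits were higher with exosomes in each pair, while the groups overlapped.

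The membrane anchors that hold ubiquinone had the other order. SDHC had 70.5 against 64.0 in pair 1 and 67.8 against 59.7 in pair 2. SDHD had 80.0 against 69.03 in pair 1 and 82.1 against 69.7 in pair 2. For each anchor both exosome libraries were below both controls. The mean log2 folds were 0.13 ± 0.23 for SDHA, 0.15 ± 0.23 for SDHB, -0.16 ± 0.23 for SDHC and -0.22 ± 0.23 for SDHD, and the smallest adjusted limma p among them was 0.72. The split by role was noticed in the values and was not tested.

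Complex III had a median log2 fold of 0.08 ± 0.17 (SD of the 2 pair medians) over the mean of both pairs, beside -0.01 for all genes, with 0.14 for pair 1 and -0.10 for pair 2. Its sign rested on single libraries: the median was -0.12 without the control library of pair 1 and -0.02 without the exosome library of pair 2. UQCRC1 and UQCRC2 encode its core proteins. UQCRC1 had 87.7 against 101 in pair 1 and 88.3 against 82.2 in pair 2, with overlap. UQCRC2 had 112 against 120 in pair 1 and 122 against 128 in pair 2, higher with exosomes in each pair. UQCRFS1, the Rieske iron-sulfur protein, had 41.7 against 43.5 in pair 1 and 57.4 against 48.9 in pair 2.

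The small subunits of complex III varied more. UQCRH, the hinge protein near cytochrome c, had 46.3 against 51.1 in pair 1 and 58.1 against 72.7 in pair 2, and UQCR10 had 14.8 against 12.9 in pair 1 and 20.4 against 17.1 in pair 2. Their mean log2 folds were 0.23 ± 0.23 and -0.21 ± 0.23, each with the same sign in both pairs. UQCRQ was low, with 2.90 against 4.54 in pair 1 and 5.52 against 4.25 in pair 2, from 37 to 54 reads per library, and its folds of 0.50 and -0.31 had opposite signs. UQCR11 had 8.79 against 9.96 in pair 1 and 11.9 in both libraries of pair 2. All 7 genes had a higher control level in pair 2 than in pair 1.

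Complex IV reduces oxygen. Its nuclear genes are subunits that regulate or stabilise the core, which is itself encoded in mitochondrial DNA. Only 6 were measured, and no row carried COX6A1, COX6B1, COX6C, COX7A2, COX7B or COX7C, so the values of this complex leave these genes out. COX4I1, the common form of its subunit, had 130 against 131 in pair 1 and 170 against 147 in pair 2. COX5A had 62.5 against 66.4 in pair 1 and 77.9 against 75.0 in pair 2. COX5B had 36.5 against 31.5 in pair 1 and 40.4 against 37.4 in pair 2. Of the 3, only COX5B was lower with exosomes in both pairs, at a mean log2 fold of -0.16 ± 0.23, and its groups overlapped.

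COX7A2L, which helps join complexes III and IV, had 58.2 against 64.3 in pair 1 and 72.8 against 69.8 in pair 2. COX8A had 5.81 against 4.54 in pair 1 and 4.56 against 5.74 in pair 2, so its mean log2 fold was -0.01 ± 0.24, which turned to 0.01 when libraries were scaled to their totals. COX7A1, the form best known from muscle and heart, was barely detected, with 1.57 against 1.48 in pair 1 and 0.318 against 1.18 in pair 2. Its control library of pair 2 held 3 reads against 15 with exosomes, a ratio of 3.70 with a 95% counting interval of 1.05 to 20.0. The median log2 fold of complex IV was -0.02 in pair 1 and -0.06 in pair 2. Over the mean of the pairs it was 0.00, which lies outside both pair medians, so their SD of 0.03 is not a spread around it. Moving NDUFA4 into the complex gave -0.01 over the mean of the pairs.

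Complex V held the subunit genes with the most reads. The catalytic head contains the alpha subunit ATP5F1A, which had 446 against 429 in pair 1 and 437 against 337 in pair 2. Both exosome libraries were below both controls, with a mean log2 fold of -0.21 ± 0.23 and an adjusted limma p of 0.741. In pair 2 its ratio was 0.772 with a counting interval of 0.740 to 0.806, against 0.963 (0.925 to 1.00) in pair 1. The beta subunit ATP5F1B shares its row with PTGES3, so its reads are uncertain; the row had 614 against 657 in pair 1 and 693 against 595 in pair 2.

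The gamma subunit ATP5F1C, the rotor inside the head, had 147 against 167 in pair 1 and 156 against 135 in pair 2. The delta subunit ATP5F1D had 34.5 against 32.6 in pair 1 and 42.8 against 42.5 in pair 2. As a group, the 4 head genes summed to 1241 against 1286 in pair 1 and to 1328 against 1110 in pair 2, ratios of 1.04 and 0.835. The uncertain row of ATP5F1B and PTGES3 made up 614 against 657 and 693 against 595 of these sums. ATP5IF1, which inhibits the enzyme when the proton gradient collapses, had 43.2 against 45.6 in pair 1 and 50.8 against 46.6 in pair 2, and the groups overlapped.

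Mammals encode the same mature c subunit of the rotor ring in 3 genes, ATP5MC1, ATP5MC2 and ATP5MC3. ATP5MC1 had 15.3 against 15.6 in pair 1 and 16.98 against 14.5 in pair 2. ATP5MC2 had 101 against 100.0 in pair 1 and 118 against 136 in pair 2. ATP5MC3 had 48.2 against 46.2 in pair 1 and 67.2 against 65.7 in pair 2. Their sum was 164 against 162 in pair 1 and 202 against 217 in pair 2, ratios of 0.985 and 1.07, and no gene of the 3 kept exosome and control libraries apart.

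Among the stalk and membrane subunits of complex V, ATP5J2, an older symbol for the gene of the f subunit, had 32.4 against 38.9 in pair 1 and 27.8 against 38.5 in pair 2. Both exosome libraries were above both controls, with a mean log2 fold of 0.35 ± 0.23 and a 95% limma interval of -0.15 to 0.85. ATP5MD, whose product sits at the edge of the enzyme dimer, had 20.2 against 31.2 in pair 1 but 31.1 against 28.0 in pair 2, so the control of pair 1 stood below the other libraries. ATP5PF, a coupling factor of the stalk, had 58.5 against 54.0 in pair 1 and 81.9 against 62.8 in pair 2, and ATP5MG, the g subunit, had 77.9 against 71.5 and 77.1 against 73.0.

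**Figure D4:**
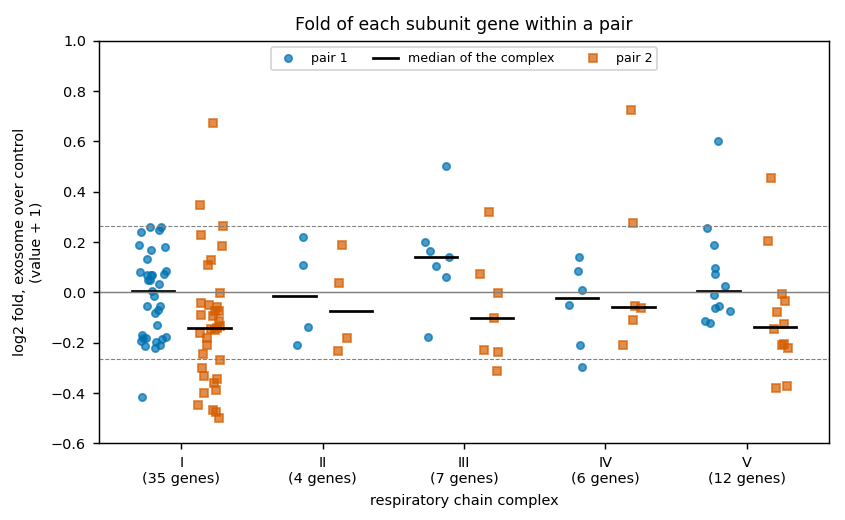
Log2 fold of each subunit gene, exosome over control on the log2(value + 1) scale, in pair 1 (circles) and pair 2 (squares) by complex, with black lines at the median of the complex and dashed lines at 1.2-fold. The medians of complexes I, III and V lie above 0 in pair 1 and below 0 in pair 2.

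Of the mitochondrially encoded subunits of the same complexes 9 were measured, all lower with exosomes in both pairs, and 3 fell in limma: CYTB, the mitochondrial subunit of complex III, and ND1 and ND3 of complex I. CYTB had 1531 against 581 in pair 1 and 2878 against 879 in pair 2. It fell by 1.55 on the log2 scale (SE 0.23, adjusted limma p 0.0139), ND1 fell by 1.36 and ND3 by 1.31. These calls were lost in edgeR with TMM factors (adjusted p 0.154 for each) and in limma-voom (adjusted p 0.118 for each), without the block (adjusted p 0.999 for each), and with any 1 library left out, where no gene was called.

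Summed by complex, the exosome to control ratio of the 5 mitochondrial genes of complex I was 0.552 in pair 1 and 0.394 in pair 2, while that of the 35 nuclear genes was 0.998 and 0.920. In complex III, CYTB had 0.3796 and 0.305 beside 1.09 and 1.00 for the 7 nuclear genes. In complex IV, the 2 mitochondrial genes measured had 0.927 and 0.800 beside 1.02 and 0.918. In complex V, ATP8 had 0.867 and 0.391 beside 1.03 and 0.875, or beside 1.01 and 0.886 without the row of ATP5F1B and PTGES3. In each of these complexes and in both pairs the mitochondrial ratio was the lower of the 2, and no test of that difference was made. Sums over few genes follow the most abundant of them.

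**Figure D5:**
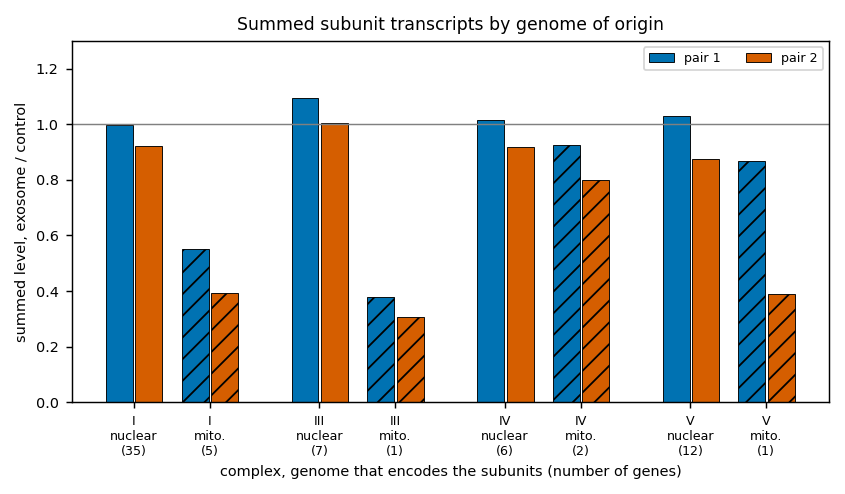
Ratio of the summed level in the exosome library to that in the control library for the nuclear (plain bars) and mitochondrially encoded (hatched bars) subunits of each complex, in pair 1 and pair 2; the line marks 1. Nuclear ratios lie between 0.875 and 1.09, mitochondrial ratios between 0.305 and 0.927.

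Other genes of the pathway were read in the same limma fit. Of 43 assembly factors, which build the complexes, none was called, and the largest differences were in NDUFAF4, with 14.4 against 9.17 in pair 1 and 21.3 against 11.8 in pair 2 (adjusted limma p 0.148), and in TTC19, whose row also holds ADORA2B. None of 20 carriers and subunits outside the rule was called. Their largest differences were in the outer membrane channel VDAC3, with 80.2 against 53.4 in pair 1 and 78.1 against 61.7 in pair 2, and in the ADP/ATP carrier SLC25A5, with 236 against 186 and 262 against 182. NDUFAB1 had 10.4 against 11.7 in pair 1 and 19.2 against 16.9 in pair 2, and CYC1, cytochrome c1 of complex III, had 24.2 against 29.5 and 35.5 against 34.6.

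Of 19 regulators of mitochondrial genes, none was called. MYC, a growth factor-induced transcription factor, had 127 against 23.3 in pair 1 and 176 against 122 in pair 2 (adjusted limma p 0.0648). NRF1, a known activator of respiratory subunit genes, had 45.1 against 79.3 in pair 1 and 56.5 against 68.4 in pair 2 (adjusted limma p 0.299). Unadjusted p was under 0.05 for 2 regulators as higher and for 2 as lower, beside 2 assembly factors as lower, where 5.95% of all genes passed as higher and 9.96% as lower. The share of assembly factors was below these background shares. A count of 2 among 19 regulators as lower was close to the 9.96%. The 2 as higher, NRF1 and the row of POLRMT and SHC2, were a larger share of the 19 than 5.95%, and counts this small were not tested.

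The 16 measured genes of the citrate cycle and the pyruvate dehydrogenase complex held no call, with 13 lower in both pairs, or 81.3% beside 32.5% of all genes. Their median log2 folds were -0.14 in pair 1 and -0.21 in pair 2. SUCLG2 had 109.8 against 80.0 in pair 1 and 127 against 93.9 in pair 2, and DLAT had 39.3 against 29.6 and 49.8 against 36.5. Among 15 genes of protein import and mitochondrial upkeep, TOMM40, the pore of the outer membrane, fell by 1.25 on the log2 scale (adjusted limma p 0.0348). It had 18.4 against 6.41 in pair 1 and 27.9 against 12.5 in pair 2, and its call was lost in edgeR with TMM factors (adjusted p 0.170), in limma without the block (adjusted p 0.999) and with any 1 library left out. PHB had 37.3 against 19.5 in pair 1 and 49.8 against 37.9 in pair 2 without a call.

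The authors' deposited tables gave the subunit genes no call either. None of the 64 passed the authors' filter (1.5-fold with an unadjusted p under 0.05) in either pair, where 5.25% of genes passed as higher and 6.49% as lower in pair 1 and 1.99% and 2.95% in pair 2. In the authors' deposited table none had an adjusted p under 0.05, beside 11.2% of shared genes in pair 1 and 4.91% in pair 2. The smallest p of a subunit gene in the authors' deposited table was 0.141 in pair 1, for ATP5MD, and 0.0115 in pair 2, for ATP5F1A, which the authors adjusted to 0.162. Each of those p-values rests on 2 libraries and carries no spread between dogs.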

How the data were processed

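The members and lists were chosen with earlier results of these data known. The submitters' processing notes list HISAT2 2.1.0, Trimmomatic 0.38, featureCounts 1.6.0, FastQC, MultiQC and, as build, CanFam3.1. Their settings and the strand mode of counting are not given in the sources used. The labels' protocols name a kit for messenger RNA. Per the file headers, the authors ran DEGseq on 1 library against 1, after reducing 30951 genes to 11838 and removing 89 and 58 outliers in pair 1 and pair 2.

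The deposited gene columns are a signal: the authors divided the reads of each gene by 1 size factor for each library. Their mean over a table's 2 columns, also deposited, is a score. Deposited log2 fold changes put exosome over control, and the authors' p-values, raw and adjusted, compare single libraries. Reads were recovered for 100% of values (whole within 0.001). DESeq2-type factors over the 4 libraries differed from the deposited ones by at most 0.894% and TMM factors by at most 1.08%, so both tables were fitted together. Genes without a row under a matching symbol are not analysed here and are missing from the read sums and medians. Among them are NDUFB6, UQCRB, ATP5PB, ATP5PO and several COX6 and COX7 genes. Whether the authors removed them or their rows lack a symbol was not tested. Sums and medians by complex therefore cover only part of the nuclear subunits. Intervals on reads cover counting error only.

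Columns were assigned to control or exosome by name and paired by the dog number in the name of the table. The pairing rests on the dog; the deviations within pairs correlated at 0.818 across genes, a value equal in both pairs by construction. The design allowed limma or edgeR by unit. Since the values are normalized, limma 3.58.1 (R 4.3.3) on log2(value + 1) with the pair as a block gave the results, with 1 residual and 11.3 prior degrees of freedom; p-values were adjusted over 11691 genes by the Benjamini-Hochberg method, with a threshold of 0.05. Folds on this scale understate the change of low genes. With the pair as a block, the p-values do not measure the spread between dogs within a group. They rest on how far the exosome to control difference varied between the 2 pairs, moderated by the spread pooled over all genes. edgeR 4.0.16, limma-voom and DESeq2 1.42.0 on recovered reads, other pseudocounts, scalings and filters and leaving out each library were alternatives. The fits were tested on simulated counts, drawn with the same spread for all genes. There limma found 5% of 1.5-fold, 49.3% of 2-fold and 95.5% of 4-fold changes. The shares were 5%, 46.6% and 94.0% in edgeR and 1.67%, 30.1% and 79.1% in DESeq2. The lack of a call therefore says little about changes of 1.5-fold.

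Subunits named in full were, in each complex, the 3 highest and 3 lowest mean folds with at least 50 reads in a library, the core and catalytic subunits, paralogues and the c subunit genes; 1 gene the rule selects is counted among the 64 but not reported here; from each related list, called genes and the 2 largest folds were named. Gene numbers of 63 of the 64 matched the RefSeq gene table of UU_Cfam_GSD_1.0, 61 under the same symbol, and that table was used for names only; ATP5MD is ATP5MK there. Positions, gene lengths and sequences were not used here.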

Additional observations from a re-analysis of the deposited data

Results flagged for a closer look

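The median log2 fold, exosome over control on the log2(value + 1) scale, had opposite signs in the 2 pairs for the 64 subunit genes together and for complexes I, III and V. For all subunit genes it was 0.028 in pair 1 and -0.12 in pair 2. Complex I had 0.0071 and -0.14, complex III 0.14 and -0.10, and complex V 0.0072 and -0.14. Each value sets 1 library against 1, and the difference between the pairs was not tested. The pair 1 medians of all members and of complexes I and V lie near 0, and scaling to the recovered totals turned that of all 64 genes to -0.00.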

How the results depend on the processing

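In the fits that kept all 4 libraries, no subunit gene was called and none reached an unadjusted p under 0.05. Of all genes, only 1.79% reached that mark in limma without the block, so 0 of 64 is close to the background there. In the other fits on all libraries the share ran from 9.03% in DESeq2 to 20.0% in limma among genes with a mean of at least 20. Counts over all genes varied with the method, higher and lower respectively: 29 and 58 in the fit reported, 202 and 408 with a pseudocount of 5, 219 and 384 among genes with a mean of at least 20, 62 and 107 in DESeq2 and 7 and 7 in edgeR with DESeq2-type factors. They were 0 and 0 with a pseudocount of 0.1, edgeR with TMM, limma-voom, scaling to totals, and each library left out in turn (0 to 0). Without the replicate block, which pairs libraries by dog, they were 0 and 0 as well. Where no gene at all was called, the lack of a called subunit gene tells nothing about the subunits. The causes were not tested. The genes tested over a mean of 20 gave a median of -0.042 for complex IV, and COX8A turned to 0.0068 with totals.

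With each library left out, fitted without the block, medians ran from -0.17 to -0.022 for complex I, -0.072 to 0.028 for complex II, -0.12 to 0.15 for complex III, -0.13 to 0.10 for complex IV and -0.14 to 0.062 for complex V. Mean log2 folds crossed 0 for NDUFA7 (-0.14 to 0.42), NDUFA13 (-0.066 to 0.53), SDHB (-0.034 to 0.34), UQCR10 (-0.43 to 0.013), UQCRFS1 (-0.31 to 0.14), UQCRC1 (-0.10 to 0.19), UQCRQ (-0.27 to 0.47), UQCRH (-0.021 to 0.48), COX4I1 (-0.29 to 0.090), COX8A (-0.16 to 0.13), COX5A (-0.14 to 0.17), COX7A2L (-0.12 to 0.20), COX7A1 (-0.14 to 0.82), ATP5MC2 (-0.12 to 0.32) and ATP5MD (-0.072 to 0.53). Under the settings that kept every library, 245 of 246 values of 28 subunits, these genes included, kept their sign. The 28 were the highest and lowest mean folds of complexes I, III and V and all genes of complexes II and IV, a choice that favours stable signs. Over all 64 genes the sign changed for 2 in edgeR with either factors, 2 in DESeq2, 1 in limma-voom and 3 when scaled to totals. A 1.5-fold change was within most intervals, so changes of that size were not bounded with 2 dogs.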

Other observations

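The control libraries of the 2 pairs differed. Of the 64 subunit genes, 48 (75.0%) had a higher level in the control library of pair 2 than in that of pair 1, beside 51.0% of all genes, with a median log2 difference of 0.21 beside 0.01. Between the exosome libraries, 33 (51.6%) were higher in pair 2, beside 49.4% of all genes, with a median difference of 0.01 beside -0.01. By complex, the median difference between the controls was 0.16 in complex I, 0.13 in complex II, 0.40 in complex III, 0.23 in complex IV and 0.20 in complex V. Each group holds 1 library per dog, so these differences have no replicate check. Dog, sex and the hours in the column names cannot be told apart in them.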
